A study of Mus musculus with 6 samples.

Results

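Simple repeats are stretches of the genome in which a unit of a few bases is copied end to end, and low-complexity tracts are stretches made mostly of 1 or a few kinds of base, such as A and T. The rows described here are those of the authors' deposited table of mouse repeats whose class begins with Simple_repeat or Low_complexity. They number 85920 of 773731 rows, of which 55607 are simple repeats and 30313 low-complexity tracts. A row is 1 tract in 1 read direction, and the 85920 rows cover 83355 distinct tracts, of which 2565 were listed in both directions. No measured value was used to choose them.

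The study sequenced total RNA of ID8, an immortalized mouse line of C57BL/6 origin labelled as ovarian surface epithelium. Both groups were untreated and growing asynchronously, and they differ in the labels by genotype alone, Trp53-/- (Trp53_KO, 3 libraries) against Trp53+/+ (Trp53_WT, 3 libraries). The labels give neither the clone or clones behind each genotype nor whether replicates were separate cultures, and p-values therefore reflect library-to-library spread that may be technical. The libraries were stranded and held 15319956 to 19954170 gene counts each.

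Trp53 encodes p53, the transcription factor that arrests damaged cells, and its own RNA was lower under the knockout label, at 29.6, 25.5 and 25.3 TMM-scaled CPM (gene counts relative to library size) in Trp53_KO against 110, 97.3 and 105 CPM in Trp53_WT. The 2 genotypes did not overlap for this gene. Of 5 tested epithelial markers 1 rose and 2 fell. Krt8 was at 492 ± 29 CPM in Trp53_KO and 611 ± 22 CPM in Trp53_WT, Krt18 at 416 ± 11 and 440 ± 19, and Krt7, which rose, at 6.90 ± 0.43 and 3.93 ± 0.39 (SD, n = 3 each). Cdh1 was under 1 CPM in both groups and Epcam had 0 counts. Of 6 tested markers of ovarian surface epithelium and mesothelium 3 rose (Upk3b, Lrrn4 and Wt1) and 2 fell. Bnc1 fell from 38.9 ± 1.9 CPM in Trp53_WT to 0.073 ± 0.030 in Trp53_KO (SD, n = 3 each). Msln fell from 1401 ± 33 to 1173 ± 45 (SD, n = 3 each), and Upk1b was not called. Of the markers of other cells, Cd3e, Adgre1, Cdh5, Kdr and Lum had 0 counts. Cd68, the immune marker with enough counts to test, was not called, at 3.98 ± 0.14 CPM in Trp53_KO and 4.86 ± 0.25 in Trp53_WT (SD, n = 3 each). Pecam1, the endothelial marker with enough counts to test, rose from 0.153 ± 0.048 CPM in Trp53_WT to 1.95 ± 0.37 in Trp53_KO (SD, n = 3 each). All 3 tested fibroblast genes rose, where 14.1% of all tested genes did. Dcn rose from 102 ± 4.2 CPM in Trp53_WT to 235 ± 11 in Trp53_KO (SD, n = 3 each). Pdgfra and Col15a1 were low, at 0.80 ± 0.10 and 0.44 ± 0.15 CPM in Trp53_WT and 2.16 ± 0.67 and 0.98 ± 0.22 in Trp53_KO (SD, n = 3 each). Thy1 had 1 count. The part of such markers in the tract results was not tested. In a multidimensional scaling of the gene counts, Trp53_WT replicate 1 stood apart from the other Trp53_WT libraries on the second axis, at -0.84 against 0.37 and 0.45.

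Simple repeats are scattered through introns and through the untranslated regions (UTRs) that flank the coding part of a messenger RNA. In RNA they are read by binding proteins: AU-rich stretches of 3' UTRs, which often hold the pentamer ATTTA, recruit factors that set RNA stability, and pyrimidine, CA or CUG stretches recruit splicing factors. A tract inside a gene is copied along with that gene's transcript, so each tract is set beside its host gene below.

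The tracts that carry the main observations are shown here so that their make-up can be read, each from the 5' end on the strand of the RNA, with T for U, over at most its first 30 bases. Sequences were read from GENCODE M21 transcripts on GRCm38, the assembly of mm10. First come 5 single-base runs from the 3' UTRs of genes whose own RNA was not called, with the run in capitals.
Arpc1b, chr5:145128059-145128088, plus strand: AAAAAAAAAAAAAAAAAAAAAAAAAAcaaa
Trim8, chr19:46516326-46516355, plus strand: AAAAAAAAAAAAAAAAAAAAggagAAAAAA
Cbx3, chr6:51482963-51482992, plus strand: TTTTTTTTTgTTTTTTTTTTTTTTTTTTTT
Yme1l1, chr2:23197369-23197392, plus strand: TTTTTTTTTTTTTTTTTTTTTTTT
Cdkn1b, chr6:134925113-134925135, plus strand: TTTTTTTTTTTTTTTTTTTTTTT

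Next come tracts of other kinds whose 3' UTR rows were called together with the gene. Capitals mark copies of the repeat unit on the RNA strand, or, in the AT-rich tracts of Peg3 and Ptgs2, the pentamer ATTTA.
Peg3 dinucleotide repeat, chr7:6706193-6706222, minus strand: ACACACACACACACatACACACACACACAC
Peg3 AT-rich tract, chr7:6705884-6705913, minus strand: aaaaaaaaATTTAaaaATTTAaaaaattaa
Ermp1, chr19:29611314-29611337, minus strand: AAACCAAACCAAACCAAACCaaac
Ptgs2 AT-rich tract, chr1:150105796-150105825, plus strand: atATTTATTTATTTAtgtgaagaATTTAat

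Few tracts were called. At an FDR (p adjusted for multiple tests by the authors) under 0.05 in the authors' deposited table, 278 rows were higher in Trp53_KO (0.324%) and 247 lower (0.287%). Over all repeat rows of that table the shares were 0.388% higher and 0.284% lower, so the tracts as a whole lay near the background. The median log2 fold change in the authors' deposited table was 0.0005 over all 85920 rows. Counting each tract once gave 277 higher and 246 lower.

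Annotation set where the calls fell. The 3' UTR held 11.8% of the rows and 50.9% of the called ones. There 155 of 10124 rows were higher (1.53%) and 112 lower (1.11%), beside 1.05% and 0.872% of all 3' UTR repeat rows in the authors' deposited table. Introns held 74.6% of the rows, of which 66 of 64106 were higher (0.103%) and 92 lower (0.144%), beside 0.238% and 0.203% of all intronic rows. Tracts outside genes gave 16 higher (0.283%) and 10 lower (0.177%) of 5648, beside 0.85% and 0.401% of all intergenic rows. Intronic and intergenic tracts were thus called less often than the background in both directions, and 3' UTR tracts more often, a description with no test.

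In 5' UTRs 26 of 4694 rows were higher (0.554%) and 23 lower (0.49%), close to 0.567% and 0.579% of all 5' UTR rows in the authors' deposited table. In coding and other exons 15 of 1348 were higher (1.11%) and 10 lower (0.742%), beside 1.48% and 0.666% of all exon rows. Simple repeats leaned upward in 3' UTRs, with 103 higher and 60 lower of 5701 rows. Runs of a single A or T base, described below, made up 48 of those higher rows and 3 of the lower ones, and without them 55 were higher and 57 lower. Low-complexity tracts had 52 higher and 52 lower of 4423 rows.

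**Figure D1:**
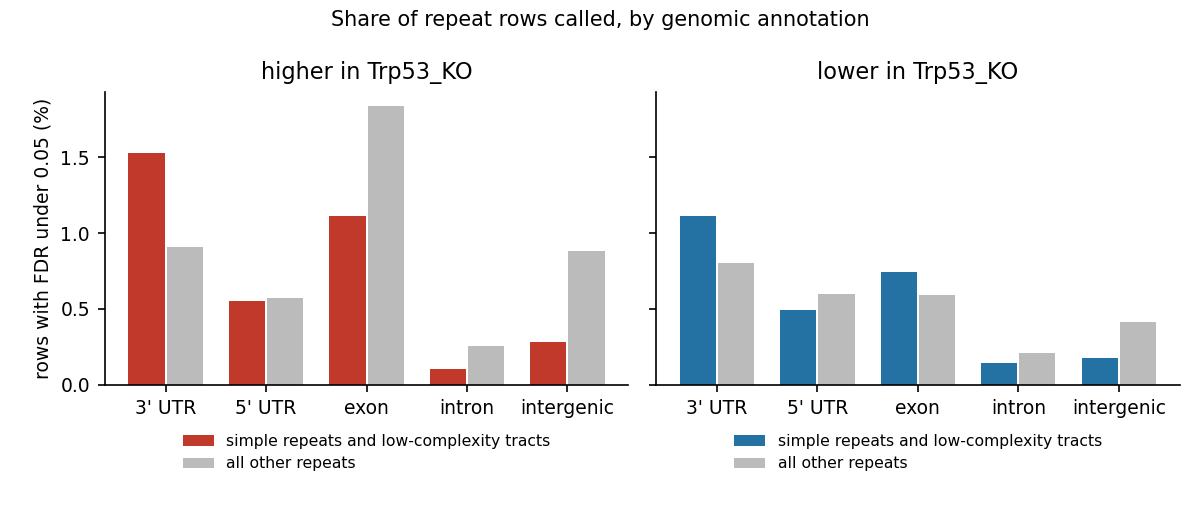
Percent of rows with FDR under 0.05 (vertical axis) by genomic annotation, higher in Trp53_KO on the left and lower on the right, for simple repeats and low-complexity tracts (coloured) and for all other repeats (grey). In the 3' UTR the coloured bars stand at 1.53% and 1.11%, above the grey bars at 0.911% and 0.803%, while in introns and outside genes they stand below them.

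By sequence, the commonest names in the authors' deposited table were AT_rich with 17765 rows, of which 111 were called, the dinucleotide (TG)n with 7828 rows and 35 called, and (CA)n with 7796 rows and 31 called. Single-base runs were far fewer, at 1768 rows for (T)n and 1765 for (A)n, yet 30 and 29 of them were called. A-rich tracts gave 27 called of 2564 rows. The following paragraphs take the single-base runs first, because their calls leaned 1 way, and the grouping was chosen after these values were seen.

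In 3' UTRs the runs of A or T leaned upward in Trp53_KO. Of 782 rows named as A or T runs on the RNA strand, 48 were higher (6.14%) and 3 lower in the authors' deposited table, against 107 higher and 109 lower of the 9342 other 3' UTR members. Their median log2 fold change was 0.45 (quartiles -0.08 and 1.16), and 70.2% of them were above 0. The other members had a median of -0.0007, with 48.4% above 0. T runs had 33 higher and 2 lower of 446 with a median of 0.57, and A runs had 15 higher and 1 lower of 336 with a median of 0.30. Runs of either base thus leaned the same way.

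Tracts rich in A and T but not made of 1 base did not share the lean. In 3' UTRs the median log2 fold change was -0.007 for 3048 AT_rich rows, 0.0006 for 302 (AT)n rows, 0.05 for 278 A-rich rows and 0.001 for 407 T-rich rows, named by the RNA strand. Other repeats went either way, with -0.17 for (AC)n over 538 rows, -0.29 for (CT)n over 153 rows and 0.16 for GA-rich tracts over 171 rows, of which 66.7% were above 0 and 2 were called in each direction. Relative to the host the GA-rich tracts stood at 0.12. When sense 3' UTR tracts were grouped by their longest unbroken stretch of A or T, the median went from -0.008 at 0 to 7 bases (6172 rows) and -0.06 at 8 to 11 bases (909 rows) to 0.19 at 12 to 15 bases (438 rows), 0.41 at 16 to 19 bases (211 rows) and 0.77 at 20 or more (325 rows). The share called higher was 1.33%, 0.99%, 3.2%, 4.74% and 8.62% from the shortest class to the longest. Length of the whole tract gave no such order among the A and T runs, whose median was 0.59 up to 25 bases, 0.47 from there to 30, 0.22 to 40 and 0.55 beyond.

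The lean remained when the host gene's change was subtracted. Relative to the host gene's own log2 fold change the medians by longest run were 0.01, -0.02, 0.24, 0.40 and 0.75, and with hosts that were not called they were 0.004, -0.03, 0.24, 0.39 and 0.78. Among hosts that rose, fell or were not called, A and T runs stood 0.40, 0.42 and 0.45 above the host. The 385 genes with both an A or T run and another member in the sense 3' UTR had a median difference of 0.49 between them (quartiles -0.10 and 1.18), and it was positive in 280 genes (72.7%). Among the 261 of these genes that were not called the difference was 0.53, positive in 193 (73.9%).

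**Figure D2:**
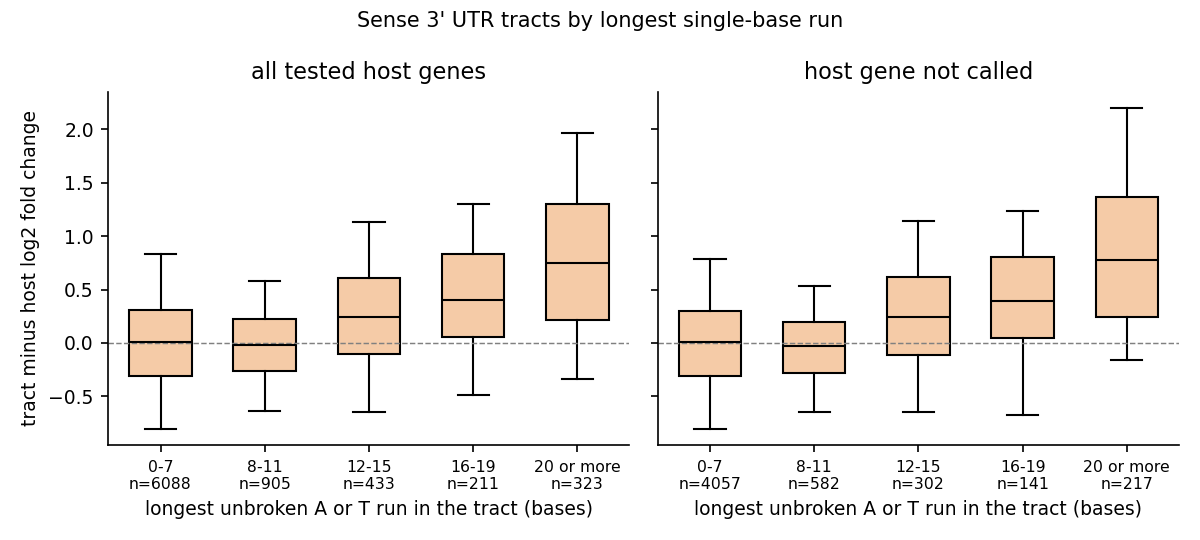
Tract minus host log2 fold change (vertical axis) for sense 3' UTR members, by the longest unbroken A or T stretch in bases (horizontal axis), for all tested hosts on the left and for hosts that were not called on the right. Boxes span the quartiles, the black line is the median and whiskers reach the 10th and 90th percentiles. The median lies at 0.01 in the shortest class and 0.75 in the longest, and at 0.004 and 0.78 where the host was not called.

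Similar stretches lying in other repeats had lower medians. At 20 or more bases their median was 0.15 over 27 rows, 0.17 relative to the host, although 3 of the 27 were called higher (11.1%) and 1 lower, and at 12 to 15 bases it was 0.003 over 386 rows. Outside 3' UTRs the A and T runs had medians above 0 too but were seldom called. Their medians were 0.25 in introns with 2 higher and 0 lower of 2220 rows, 0.25 outside genes with 1 and 1 of 335 (0.34 for A runs but 0.001 for T runs), and 0.28 in 5' UTRs with 4 and 0 of 195. Relative to the host the median was 0.33 in introns (2127 rows) and 0.44 in 5' UTRs (183 rows), beside 0.44 in 3' UTRs (761 rows). The lean relative to the host was thus not particular to 3' UTRs. On the antisense strand of 3' UTRs the median was 0.03 over 54 rows.

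The calls gathered in well expressed hosts. Of A and T runs in sense 3' UTRs, 1 of 45 was higher in hosts under 10 CPM, 4 of 201 at 10 to 50 CPM, 19 of 288 at 50 to 200 CPM and 21 of 129 above 200 CPM. Their median relative to the host was 0.32, 0.31, 0.48 and 0.54 in the same order, so it was above 0 in each class. For the other members it was 0.11, -0.002, 0.02 and 0.01. The authors' deposited table holds no values per library, so whether 1 library, such as Trp53_WT replicate 1, carries the lean was not tested.

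The 48 higher rows belonged to 45 hosts, of which 21 hosts with 22 rows were tested and not called. That status did not hold in every alternative for 4 of them: Trim8 and Nfia, given below, Set, which was called in 7 of 10 alternatives, and Srsf10, which was called with no filter on low counts (edgeR adjusted p = 0.0266). Set stood at 0.30 (edgeR adjusted p = 0.0516), with adjusted p from 0.0012 to 0.172 over the alternatives, beside 1.35 for its T run in the authors' deposited table. With hosts tested and not called, 22 of 519 A or T runs were higher (4.24%), against 3 of 6047 other 3' UTR members. The 22 rows spanned log2 fold changes of 0.90 to 4.85 in the authors' deposited table. The value of 4.85 was 1 row, the A run of the clone gene RP24-75N14.3 (FDR 0.013), whose strand was not known. The 21 hosts spanned -0.10 to 0.30, and in 16 hosts the libraries of the genotypes overlapped. They were picked as not called, so small changes and overlap come with that choice. Over all 13651 tested genes, 6281 did not overlap. The same hosts had 43 other sense members in their 3' UTRs, of which 0 were called, with a median of 0.08.

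Arpc1b, a subunit of the actin-branching Arp2/3 complex, gives the lowest FDR among them. Its CPM was 216, 197 and 236 in Trp53_KO and 204, 230 and 238 in Trp53_WT. The libraries overlapped, with a log2 fold change of -0.05 ± 0.09 (SE), with adjusted p = 0.703 by edgeR's test and Benjamini-Hochberg correction. Its 30-base A run stood at 1.58 in the authors' deposited table (FDR 5.1e-09).

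Cbx3, a heterochromatin protein, was at 233, 275 and 229 CPM in Trp53_KO and 211, 232 and 235 in Trp53_WT, overlapping again. Its T run stood at 1.37 in the authors' deposited table against 0.12 for the gene. Yme1l1, a mitochondrial protease, was at 259, 277 and 246 CPM against 220, 241 and 239, which did not overlap. Its 24-base T run stood at 1.52 in the authors' deposited table against 0.16 for the gene. Cdkn1b, the cyclin-dependent kinase inhibitor p27, was at 101, 109 and 99.1 CPM against 89.6, 104 and 101. Those libraries overlapped, and its 23-base T run stood at 1.88 in the authors' deposited table beside 0.07 for the gene.

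Trim8, a ubiquitin ligase, had a larger gap. The gene was at 99.0, 95.1 and 112 CPM in Trp53_KO and 91.5, 86.7 and 86.2 in Trp53_WT, a log2 fold change of 0.21 that was not called (edgeR with Benjamini-Hochberg adjustment, adjusted p = 0.069). Its A run stood at 3.002 in the authors' deposited table. Without Trp53_WT replicate 1 the gene was called at 0.24 (edgeR adjusted p = 0.0184) and without Trp53_KO replicate 2 at 0.26 (edgeR adjusted p = 0.0451), both far under the tract. Nfia, whose T run stood at 1.65 in the authors' deposited table, moved from 0.19 to 0.50 without Trp53_WT replicate 1, where it was called (edgeR adjusted p = 7.45e-05).

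A few more of these hosts are given by their known roles, picked after their values were seen. Serbp1, an mRNA-binding protein, had 2 higher tracts in its 3' UTR, a T run at 1.89 and an A run at 0.90 in the authors' deposited table, with the gene at 0.16. Hnrnpl, a binder of CA repeats, had a T run at 1.04, and Mbnl1, a binder of CUG repeats, an A run at 1.34 in the authors' deposited table, with genes at 0.08 and 0.09. Upf1, the helicase of nonsense-mediated decay, had a T run at 1.25 against -0.03 for the gene, and Dkc1, the pseudouridine synthase dyskerin, an A run at 1.99 against 0.15, tracts from the authors' deposited table. None of these 5 hosts was called.

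In the other direction, all 3 lower A or T runs lay in genes that fell. Cap1, a cyclase-associated actin regulator, fell by 2.22 on the log2 scale and its T run by 1.67 in the authors' deposited table. Chst1, a keratan sulfate sulfotransferase, fell by 2.82 and its A run by 3.06 in the authors' deposited table. Myo10, an unconventional myosin of filopodia, fell by 1.23 and its T run by 0.93 in the authors' deposited table.

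Apart from the single-base runs, called 3' UTR tracts followed their host genes. Over 210 called sense rows in 169 hosts the tract and gene fold changes correlated at r = 0.938, 208 pairs had the same sign, and the median difference was 0.02. The rows of 1 host share its transcripts, and both axes come from the same 6 libraries, so this is a description. For the 48 called A or T runs the median stood 1.16 above the host. Of these runs 45 were called higher, whereas the other called rows mix both directions, so part of that gap comes with the choice of called rows. Over all 663 sense 3' UTR runs with a tested host, called or not, the median stood 0.44 above the host. In introns the correlation was 0.821 over 132 called rows in 85 hosts. Over all 8278 sense 3' UTR rows, most of which were not called, it was 0.584, and over 57485 sense intronic rows 0.274.

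**Figure D3:**
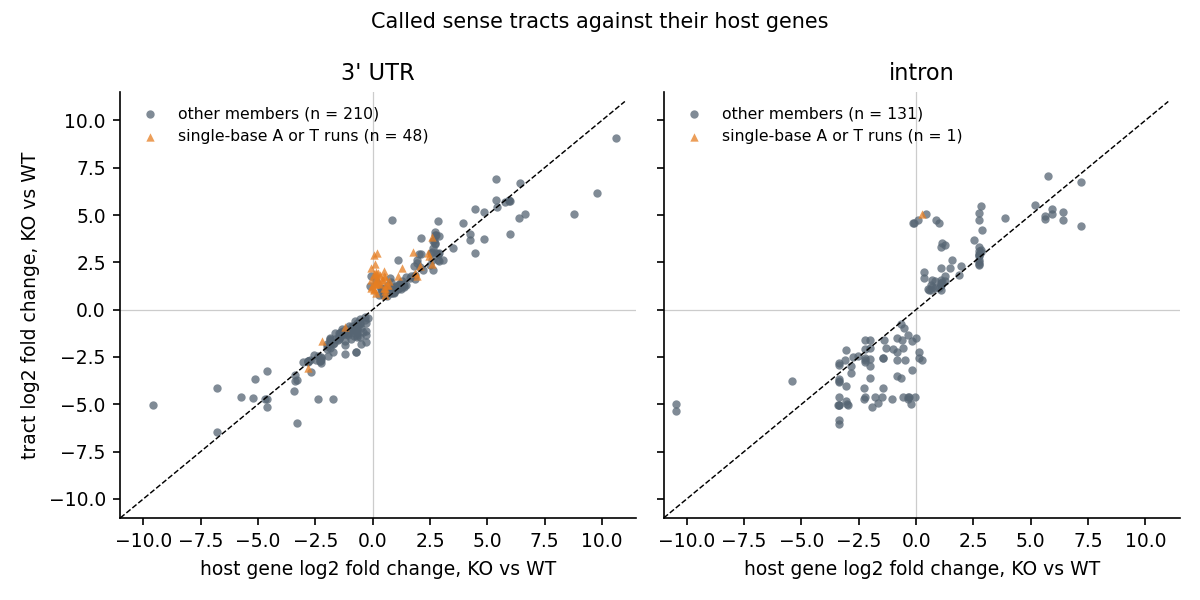
Log2 fold change of each called sense tract (vertical axis, authors' deposited values) against that of its host gene (horizontal axis, edgeR), in 3' UTRs on the left and introns on the right, with the line of equality dashed. Grey points, the other members, follow the line in 3' UTRs (r = 0.938), whereas orange triangles, the single-base A or T runs, lie above it by a median of 1.16. The runs shown are called rows, 45 of 48 called higher, and over all 663 sense runs with a tested host the median was 0.44.

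Hosts of called tracts were called much more often than genes in general. They were chosen through tracts called in the same libraries, most on the gene's own strand, so a high share was built into the choice. Of 346 host genes with a called tract, 334 could be tested with edgeR: 159 rose, 125 fell and 50 were not called. That makes 85.0% called, where 14.1% of all 13651 genes rose and 16.1% fell, and where 31.3% of the 10093 tested hosts of any member were called. Of the 262 higher rows in genes, 223 lay in a gene that rose and 1 in a gene that fell, and of 237 lower rows 203 lay in a gene that fell and 1 in a gene that rose. No host had tracts called in both directions (0 of 346). In 297 of the 334 tested hosts the libraries of the genotypes did not overlap, against 6281 of all 13651 tested genes. The tested hosts also had a higher median level, at 66.4 CPM against 29.8 over all tested genes. Without Trp53_WT replicate 1, 165 hosts rose and 129 fell.

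Among 3' UTR tracts that were higher, those of Peg3 led by FDR. Peg3, an imprinted gene that encodes a zinc finger protein, was at 496, 515 and 550 CPM in Trp53_KO and at 8.78, 8.85 and 8.04 in Trp53_WT, with no overlap. The gene rose by 5.93 ± 0.08 on the log2 scale (SE), with adjusted p = 5.2e-10 by edgeR's test and Benjamini-Hochberg correction. Its dinucleotide repeat stood at 5.74 (FDR 3.62e-52) and its AT-rich tract at 5.77 in the authors' deposited table. All 8 member rows of Peg3 were called higher, 2 in the 3' UTR, 2 in introns and 4 in the 5' UTR.

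Hspa12a, an HSP70 relative, was at 185, 184 and 198 CPM in Trp53_KO and 26.2, 24.6 and 25.6 in Trp53_WT, with no overlap, and its 78-base (TCCA)n tract stood at 3.01 in the authors' deposited table beside 2.89 for the gene. Ermp1, a metallopeptidase of the endoplasmic reticulum, was at 354, 349 and 355 CPM against 129, 106 and 105. Its (GTTTG)n tract stood at 1.67 in the authors' deposited table and the gene at 1.64, so tract and gene moved by nearly the same amount. Hs6st2, a heparan sulfate sulfotransferase, had 3760 counts in Trp53_KO and 2 in Trp53_WT, a ratio of 1842 (exact 95% interval 510 to 15218, counting error only). Its T-rich tract stood at 9.05 in the authors' deposited table.

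Lower 3' UTR tracts were led by Slc14a1, a urea transporter, and by Nrn1, a neurite growth factor. Slc14a1 was at 26.7, 25.2 and 22.7 CPM in Trp53_KO and 265, 266 and 242 in Trp53_WT. Its (TTTTTG)n and A-rich tracts stood at -3.45 and -3.76 in the authors' deposited table, beside -3.37 for the gene. Nrn1 was at 18.2, 20.9 and 16.9 CPM against 116, 147 and 133, with its A-rich tract at -2.75 in the authors' deposited table and the gene at -2.83. In both genes the libraries did not overlap.

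Grem1, a secreted inhibitor of bone morphogenetic proteins, had 0 counts in all Trp53_KO libraries and 54.9, 71.2 and 70.2 CPM in Trp53_WT. It was at least 1211-fold lower, taking 3 counts over the group as the floor, and its (TTTTG)n tract stood at -9.44 in the authors' deposited table. F13a1, the A chain of coagulation factor XIII, was at 6.32, 6.70 and 7.98 CPM against 252, 271 and 259, with its CT-rich tract at -4.69 in the authors' deposited table and the gene at -5.22. Cdkn1a, the p53 target p21, was at 1.73, 1.51 and 1.54 CPM against 46.0, 39.5 and 37.5. Its (CAAAA)n tract stood at -4.71 in the authors' deposited table beside -4.67 for the gene, and this row was chosen after its value was seen.

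**Figure D4:**
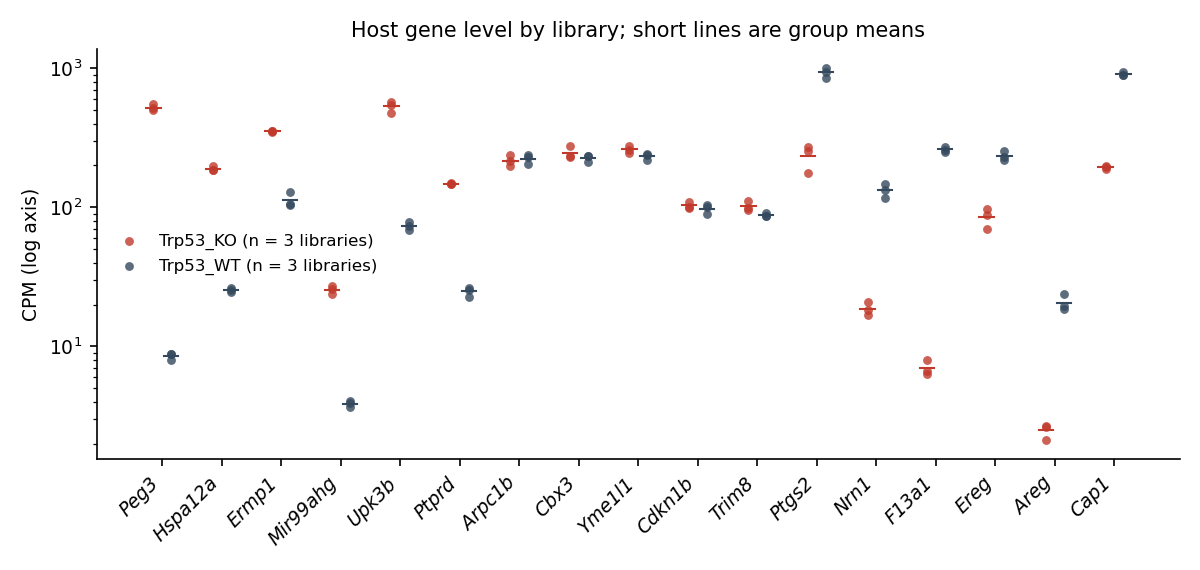
CPM (vertical log axis) of host genes in each library, Trp53_KO in red and Trp53_WT in dark blue, with short lines at the group means of 3 libraries. Peg3 to Ptprd sit higher in Trp53_KO and Ptgs2 to Cap1 lower, while Arpc1b, Cbx3, Yme1l1, Cdkn1b and Trim8, whose single-base runs were called higher, lie at similar levels in both genotypes.

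Hosts with several called tracts showed how far a change ran along a gene. Of 26 hosts with at least 3 called tracts, 7 rose, 18 fell and 1 could not be tested. Mir99ahg, the long RNA from which miR-99a and let-7c are cut, had 16 called rows over 15 tracts, and 69 of its 71 member rows were above 0. Its called rows lay 266 to 415 kb from the gene start and stood at 2.37 to 5.08 in the authors' deposited table. The gene was at 23.8, 27.0 and 26.0 CPM in Trp53_KO and 4.05, 3.91 and 3.65 in Trp53_WT, with no overlap.

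Pkhd1l1, a large transmembrane protein, had 8 called rows and 47 of 49 rows above 0, and Adamts9, a secreted metalloprotease, had 5 called and 28 of 29 above 0. Upk3b, a mesothelial uroplakin, had all 3 of its rows called, at 2.95 to 4.71 in the authors' deposited table, with the gene at 548, 473 and 572 CPM against 73.0, 69.0 and 79.0. Ptprd, a receptor phosphatase whose gene spans 2271 kb, had its 3 called rows in the 3' UTR alone. Lbh, a transcription cofactor, had 3 called of 8, all 8 above 0.

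Ptgs2, the inducible cyclooxygenase COX-2, had 7 of its 9 rows called lower, at -2.998 to -1.59 in the authors' deposited table. The gene was at 254, 273 and 175 CPM in Trp53_KO and 939, 1005 and 856 in Trp53_WT, with no overlap. The AT-rich 3' UTR tract printed above, which holds 7 ATTTA pentamers over its 50 bases with overlapping copies counted, stood at -1.90 (FDR 5.5e-30) and an intronic AT-rich tract at -2.60 in the authors' deposited table. The gene stood at -1.995, and all 7 called rows were on its side of 0.

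Ereg and Areg, neighbouring ligands of the EGF receptor, had 6 and 5 called tracts, all lower. Ereg was at 88.0, 97.1 and 70.3 CPM against 220, 253 and 230, and Areg at 2.70, 2.11 and 2.66 against 18.5, 23.6 and 19.5. Arhgap40 and Nrn1 had 6 called tracts each, Cap1 5, and Ckap4, Hmga2 and Tnip3 4 each, again all lower. Chst1, Emp1, Fmn1, Gda, Grem1, Wwp2 and RP24-472D23.1 had 3 each, all lower too. Gda, guanine deaminase, had 3 of its 4 rows called, at -5.14 to -3.24 in the authors' deposited table, and was at 1.94, 1.45 and 1.86 CPM against 37.8, 44.4 and 46.1. Fmn1, an actin-nucleating formin, had 72 of 93 rows below 0 but only 3 called. Its Trp53_WT levels were 254, 161 and 158 CPM, highest in replicate 1, against 56.5, 62.4 and 64.5 in Trp53_KO.

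**Figure D5:**
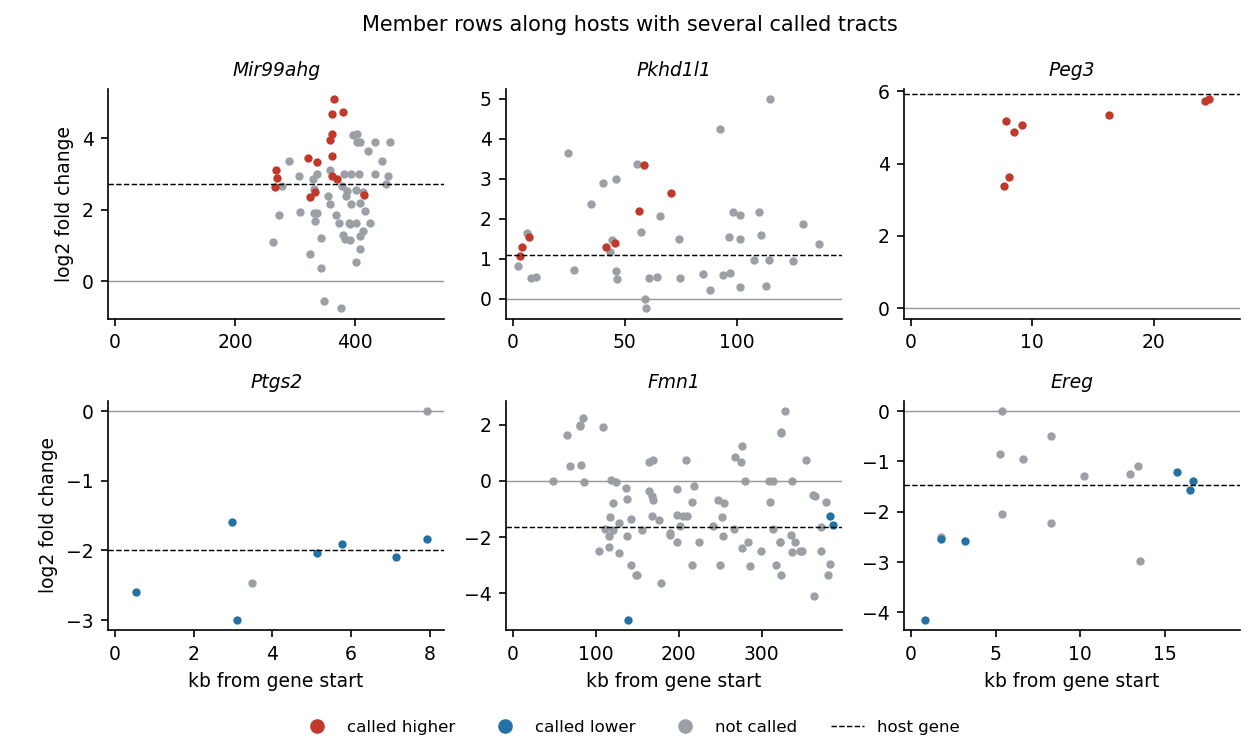
Log2 fold change of each member row (vertical axis, authors' deposited values) by distance from the gene start in kb (horizontal axis) for 6 hosts, with rows called higher in red, lower in blue and not called in grey, and the host gene's own log2 fold change dashed. Called and uncalled rows lie on the same side of 0 along Mir99ahg (69 of 71 rows above 0), Pkhd1l1 (47 of 49) and Peg3 (8 of 8), and most rows of Ptgs2, Fmn1 and Ereg lie below 0.

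Called intronic tracts stood further from their genes. Of 132 called sense rows 64 lay within 1 log2 unit of the gene, against 172 of 210 in 3' UTRs without single-base runs. Some called intronic rows of unrelated genes shared 1 value in the authors' deposited table. They stood at 4.60 in Nr5a1, R3hcc1l and Slc36a4 and at -4.60 in Nrg1, Lzts2 and Ptpn21 (FDR 0.034). Counts per row are not given, so whether few reads set such distances was not tested. Among the 5 higher rows with the lowest FDR, those of Snhg18 (G-rich, 7.06), Hspa12a ((TG)n, 4.22) and Lsr ((TGGG)n, 2.61) in the authors' deposited table stood above genes at 5.74, 2.89 and 1.58. That of Gdf6 (CT-rich, 4.79) in the authors' deposited table stood below its gene at 5.60. Gdf6, a bone morphogenetic protein, was at 189, 165 and 167 CPM in Trp53_KO and 3.24, 3.71 and 3.70 in Trp53_WT. Vmn2r15, whose AT_rich tract stood at 6.73 in the authors' deposited table, had 202 counts against 1, a ratio of 198 (exact 95% interval 35.1 to 7857), too wide to place the tract above or below the gene.

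Called tracts in Necap2, an adaptor of clathrin-coated vesicles, were lower without a called change of the gene. The gene was at 44.5, 39.9 and 43.3 CPM in Trp53_KO and 35.98, 39.0 and 42.0 in Trp53_WT, overlapping and not called (0.13 ± 0.09 on the log2 scale, SE; adjusted p = 0.306, edgeR with Benjamini-Hochberg correction). A (CAG)n tract in its intron stood at -2.57 in the sense direction and at -5.27 in the antisense direction, and an AT_rich tract beside it at -2.24, in the authors' deposited table. Vmp1 likewise held an A-rich intronic tract at -3.19 and an AT_rich 5' UTR tract at -2.49 in the authors' deposited table, with the gene at -0.17 and not called. Aldh18a1 rose by 0.27 while its intronic (CGG)n tract stood at -2.68 in the authors' deposited table, the 1 lower row in a gene that rose.

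Antisense rows were few, 5 higher and 9 lower, but several were large. Arhgef10l had 4 called tracts, all antisense to the gene, within its introns at 137 to 146 kb from the start, and they stood at -6.72 to -5.15 in the authors' deposited table. The gene itself was at 37.1, 30.7 and 41.4 CPM against 48.4, 48.4 and 48.0, -0.41 on the log2 scale (adjusted p = 0.0165, edgeR with Benjamini-Hochberg correction). Without Trp53_KO replicate 1 that gene was not called, at -0.41 (edgeR adjusted p = 0.0568). Phactr4 had 2 antisense tracts at -6.56 and -6.24 in the authors' deposited table, with the gene at 0.08 and not called. Macrod1 had 1 antisense tract at 1.53 in the authors' deposited table in a gene that fell by 2.29, 51 bases before the start of Flrt1 on the strand of the tract.

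Of the 26 called intergenic rows, 4 overlapped a GENCODE gene on the same strand and 8 more lay within 5 kb beyond the end of one. In the 4 cases where that neighbour could be tested, it was called in the same direction. A (T)n tract 1 base past Bnc2 stood at 1.84 in the authors' deposited table beside 1.44 for the gene. A (CA)n tract 311 bases past Megf6 stood at 4.09 beside 4.91, and 1 at 84 bases past Foxs1 at 4.73 beside 9.30, tracts from the authors' deposited table. An (ATG)n tract 1400 bases past Arhgap40 stood at -5.25 in the authors' deposited table beside -3.36. The values 4.73 and -5.25 recurred in unrelated rows, such as intronic tracts of Col3a1 (4.73) and RP23-67P7.1 (-5.25). Whether few reads set them was not tested, since counts per row are not given. The lowest FDR outside genes fell on chromosome X, where a (TG)n tract at 7.31 and 2 AT_rich tracts at 7.04 and 5.08 in the authors' deposited table lay together on the minus strand near the predicted gene Gm14756.

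The other leading intergenic rows did not lie within 5 kb beyond the end of a tested gene on their strand. The (CA)n tract on chromosome 7 stood at 3.07, the (TAGA)n tract on chromosome 11 at -3.61 and the (GA)n tract on chromosome 5 at -1.11 in the authors' deposited table. On chromosome 17 a T-rich tract at -3.08 in the authors' deposited table lay 3217 bases from Cyp1b1, and an A-rich tract stood at -4.73 in the same table. The value -4.73 recurred there too, as in an intronic tract of Hmga2. Within introns of the untested clone gene RP23-6A14.5, AT_rich tracts stood at -4.01 and -3.35 in the authors' deposited table, the latter 974 bases past Trdv4, which stood at -3.60.

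In coding exons such tracts can encode runs of amino acids. All 15 higher exon rows lay in genes that rose, and 9 of 10 lower ones in genes that fell. A (CAG)n tract in Lrrn4, a mesothelial leucine-rich protein, stood at 8.13 in the authors' deposited table beside 8.04 for the gene. A GA-rich tract in Areg stood at -3.24 in the authors' deposited table beside -3.04, and an (ATG)n tract in Spp1, the aspartate-rich protein osteopontin, at -0.76 beside -0.80 for the gene. In 5' UTRs 22 of 26 higher rows lay in genes that rose and 17 of 23 lower rows in genes that fell. The exceptions held 2 tracts of Neat1, the RNA that scaffolds paraspeckles, at -0.74 and -0.49 in the authors' deposited table. Neat1 itself was at 1800, 2217 and 3123 CPM in Trp53_KO and 4474, 3102 and 3088 in Trp53_WT, overlapping, with -0.58 on the log2 scale (adjusted p = 0.0568, edgeR with Benjamini-Hochberg correction).

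The pentamer ATTTA, searched as these letters on the RNA strand alone, did not separate the directions. In sense 3' UTR AT-rich tracts it was found in 10 of 33 higher tracts (30.3%), 14 of 34 lower ones (41.2%) and 1023 of 2423 that were not called (42.2%). In the middle 30 bases of tracts at least that long it was found in 44.4% of 9 higher, 46.7% of 15 lower and 39.0% of 998 uncalled tracts, against 4.44% of 1111617 adjoining windows of that length over annotated 3' UTRs, 1 transcript a gene. AT-rich tracts thus held it often whether or not they were called. The windows were not matched for base composition. The 2490 AT-rich tracts had a median of 0% G and C bases, so a share above that of the windows comes with their make-up. A match is a description of the letters and not a binding site.

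Proteins known to bind simple-sequence RNA or to repair microsatellites were followed as a list of 48 genes, 47 of them tested. With edgeR 5 rose and 5 fell, where 14.1% and 16.1% of all genes did, and the median log2 fold change was 0.08 beside -0.02 over all genes. Those that rose were Celf1 (0.21), Tardbp (0.31), Ptbp3 (0.34), Pabpc4 (0.40) and Mlh3 (0.95). Those that fell were Mbnl3 (-0.49), Tia1 (-0.24), Fmr1 (-0.42), Adar (-0.25) and Adarb1 (-1.96).

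The largest of these were in repair and editing. Mlh3, a mismatch repair protein, was at 23.5, 20.9 and 19.6 CPM in Trp53_KO against 11.3, 10.8 and 11.04 in Trp53_WT. Adarb1, an editor of double-stranded RNA, was at 3.52, 2.84 and 2.66 CPM against 11.7, 11.4 and 12.2, and neither gene's libraries overlapped. Pabpc4, a poly(A)-binding protein, was at 264, 255 and 256 CPM against 193, 199 and 196, also without overlap. None of the 6 binders of AU-rich elements was called, with a median of 0.02. For them DESeq2 also gave 0 calls, and 0 had an unadjusted edgeR p under 0.05. Both counts used all 6 libraries, and Trp53_WT replicate 1 stood apart in some of these genes. Zfp36l1 was at 41.1, 44.8 and 39.7 CPM in Trp53_KO and 47.3, 27.1 and 24.7 in Trp53_WT. Elavl1 was at 161, 165 and 157 CPM against 198, 142 and 152, while Zfp36 was at 8.57, 8.63 and 9.25 against 8.57, 8.85 and 7.51. Whether the binders stay uncalled without that library was not tested. The calls of Adar, Celf1 and Tia1 did not hold throughout. Adar lost its call in 9 of 10 alternatives, DESeq2 included, and kept it with the replicate block (edgeR adjusted p = 0.0369). Celf1 lost it in 6 and Tia1 in 5. Leaving out single libraries gave edgeR adjusted p up to 0.135 for Adar (without Trp53_KO replicate 2), 0.123 for Celf1 (without Trp53_WT replicate 2) and 0.148 for Tia1 (without Trp53_KO replicate 1).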

How the data were processed

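Reads were processed by the submitters. The submitters' processing notes name STAR, featureCounts, edgeR and the build mm10, with no version or setting. The authors deposited unnormalized counts for 41327 gene symbols, and a table of repeats with a fold change and an FDR, an adjusted p-value, for Trp53_KO against Trp53_WT. The deposited fold change was read as log2, because over 226 called sense tracts it was at the median 1.08 times the host's log2 fold change as fitted here (quartiles 0.954, 1.35). The suffix of a row was read as the RNA strand, since it matched the host gene's strand in 89.0% of 10552 exon and 3' UTR rows. FDR values were shared across chromosomes, so they were taken as adjusted over the whole table. That table has no values per library, and its depth is not known. Coordinates were taken as 1-based, since in 99.9% of 1726 dinucleotide tracts the first and last bases belonged to the repeat unit.

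Gene counts were fitted here with edgeR 4.0.16 in R 4.3.3 on all 6 libraries: filterByExpr (13651 genes), TMM, glmQLFit and glmQLFTest with genotype as the only term, Benjamini-Hochberg adjustment over all genes, threshold 0.05. SE is the absolute log2 fold change over the square root of F, and is approximate. Tested on simulated data for this comparison, with 13477 genes, the fit called 98 of 100 genes given a log2 change of 1 and 57 of 100 given 0.5, with 9 false calls. The simulation gave every gene the same dispersion, changed only genes above a minimum count and held no outlying library. Its counts may therefore not carry over to the real libraries. No replicate pair agreed within sampling noise (chi-square per degree of freedom 2.01 to 27.5), so each was kept.

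Rows were called at an FDR under 0.05 and set beside the same share of all rows, with no enrichment test. The text names the 5 rows of lowest FDR per direction in 3' UTRs, introns and intergenic sequence, the commonest repeat names, hosts with at least 3 called tracts, and called genes of the list of binders. Other rows, and the grouping by single-base runs, were chosen after values were seen. The members and lists were chosen with earlier results of these data known. Repeat names are those of the table, which refer to the plus strand, except where the RNA strand is stated. Sequences, strands and neighbours came from GENCODE M21. Without a genome sequence in use, tracts of introns and intergenic regions were not read. Alternatives were other FDR thresholds, a fold threshold, each tract once, RLE factors, no filter, DESeq2 1.42.0, a replicate block and leaving out each library.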

Additional observations from a re-analysis of the deposited data

How the results depend on the processing

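At an FDR under 0.01, 162 members were higher and 152 lower, and of the 3' UTR A or T runs 31 were higher. At an FDR under 0.1, 5 of those runs were lower. Intergenic rows alone gave 16 higher and 10 lower. Counting each host gene once left 160 lower. With hosts that were not called, 22 A or T runs were higher and 0 lower. All settings for the runs, their removal, and counting hosts once were chosen after seeing the data. The other settings for members, including a fold threshold and the removal of A and T runs, stayed within 1.5 times of the reported counts. So did all alternatives for genes and hosts: leaving out each library gave 2977 to 4984 called genes, 154 to 165 hosts that rose and 118 to 129 that fell. Of the 284 called hosts, 271 to 284 were called again in each alternative, and 0 changed sign. The replicate block gave 3806 called genes, 160 hosts that rose and 126 that fell. Same-numbered libraries did not deviate together (correlations -0.0532, 0.077 and -0.122), so the numbers were not taken to pair the samples. Of 850 repeats of named host and binder genes, 813 kept their call, 26 lost it (7 genes) and 11 gained it (4 genes). The deposited comparison allows no refit per library, and tracts with few reads cannot be told from unchanged ones, since the depth per row is unknown.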
